A study of Mus musculus with 12 samples.

Results

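The plasma proteins of the complement and coagulation cascades were examined as a group of 36 genes, chosen as factors that hepatocytes make, of which 16 belong to complement and 20 to coagulation, its inhibitors and fibrinolysis. Of these, 33 were measured, 15 of complement and 18 of coagulation, among 19938 genes tested. A gene counted as measured when a row of the array table carried its symbol and no other, and the brightest such row over all 12 arrays stood for it. C3, Cpb2 and Klkb1 had no such row and were not analysed here. The levels came from the liver of 6 mice given an adenovirus for ChREBP and 6 mice given an adenovirus for GFP, all of them fed male C57BL/6J mice. The labels give 8 weeks both as the age of the animals and as their age at virus delivery, and the livers were taken 3 weeks after the tail vein injection, so the age at harvest is not settled. Each mouse has 1 array. ChREBP, encoded by Mlxipl, is a transcription factor that responds to glucose, and GFP is a fluorescent protein that serves as the control for the virus itself. Every animal had therefore received an adenovirus, and none was uninfected. The isoform and species of ChREBP, the promoter that drove it and the share of liver cells that took up virus are stated neither in the labels nor in the study's methods.

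Complement and coagulation are chains of proteases that the liver secretes into plasma as inactive precursors. Complement starts at antibodies, at microbial sugars bound by the mannose-binding lectins, or on any unprotected surface, passes through C3 and C5, and ends in a pore, the membrane attack complex, that is built from the terminal components. Coagulation runs from tissue factor and factor VII, or from the contact factors, to thrombin, which turns fibrinogen into fibrin, while serpins, the protein C system and plasmin hold it back or dissolve the clot. Both sets of genes are textbook products of the hepatocyte, and fibrinogen is a classical acute phase protein.

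Mlxipl averaged 10.89 ± 0.0839 in ChREBP livers and 9.32 ± 0.226 in GFP livers (log2 units, SD, n = 6 each), so the groups differed by 1.57 (SE 0.0905, adjusted p = 2.86e-08). Differences are given throughout as ChREBP minus GFP on the log2 scale, and passing means an adjusted p under 0.05 in limma. The background was broad, with 27.0% of all genes tested passing, 13.7% lower and 13.3% higher, and a median difference of -0.0419 over all genes. The 9 measured hepatocyte markers averaged 12.68 to 12.79 on the ChREBP arrays and 12.84 to 12.96 on the GFP arrays. Of them 6 were lower and 0 higher, with a median difference of -0.15. They ran from -0.27 for Apoa1 (adjusted p = 0.000346) to -0.04 for Apoa2 (adjusted p = 0.518). For 6 the ChREBP arrays all lay below the GFP arrays, against 6.83% of all genes. Alb, for albumin, differed by -0.07 (adjusted p = 0.205). Its group means of 13.05 and 13.12 lay near the array maxima of 13.52 to 13.68. The 8 measured transcripts of pancreatic acinar cells averaged 12.2 on ChREBP 4, 12 on ChREBP 5 and 7.53 on ChREBP 2, and from 5.9 to 6.65 on ChREBP 1, ChREBP 3 and ChREBP 6, against 5.96 to 6.15 on the GFP arrays. The mean of the 5 measured adipocyte markers was highest on ChREBP 6 (7.48), GFP 4 (7.37) and GFP 6 (7.21), against at most 6.99 on any other array. Adipoq stood at 9.02, 8.52 and 8.32 on these arrays, against at most 7.25 on any other. Between the groups, Fabp4 was higher in ChREBP livers (1.37, adjusted p = 0.00141), Plin1 was lower (-0.22, adjusted p = 0.038), and 3 did not pass. Of 8 T and NK cell markers 7 were higher, with list means of 6.03 to 6.67 on ChREBP arrays and 5.39 to 5.78 on GFP arrays. In whole liver, fewer cells of a type and less RNA per cell cannot be told apart.

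Nearly the whole set was lower in ChREBP livers. Of the 33 measured genes 31 fell, 1 rose (Mbl2) and 1 did not pass (Masp2), where 13.7% of all genes fell. The median difference was -0.32, against -0.0419 over all genes. In 30 of the genes every ChREBP array lay below every GFP array, a separation that 6.83% of all genes showed. Falls of at least 1.5-fold with an unadjusted p under 0.05 were found for 10 members, against 1.6% of all genes. Among genes that passed, 4 members (C8a, C8b, C6 and F11) fell by at least 2-fold, as did 86 of all 19938 genes. Without ChREBP 4 and ChREBP 5, the arrays with the most pancreatic signal, 30 members passed with a median difference of -0.29. Without GFP 4, GFP 6 and ChREBP 6, 31 passed with a median of -0.36. Of all 19938 genes, 4973 passed after the first removal and 4123 after the second. Both member counts include Mbl2, which passed as a rise each time. The plot of differences by gene shows that the largest falls were grouped in the terminal pathway of complement.

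**Figure D1:**
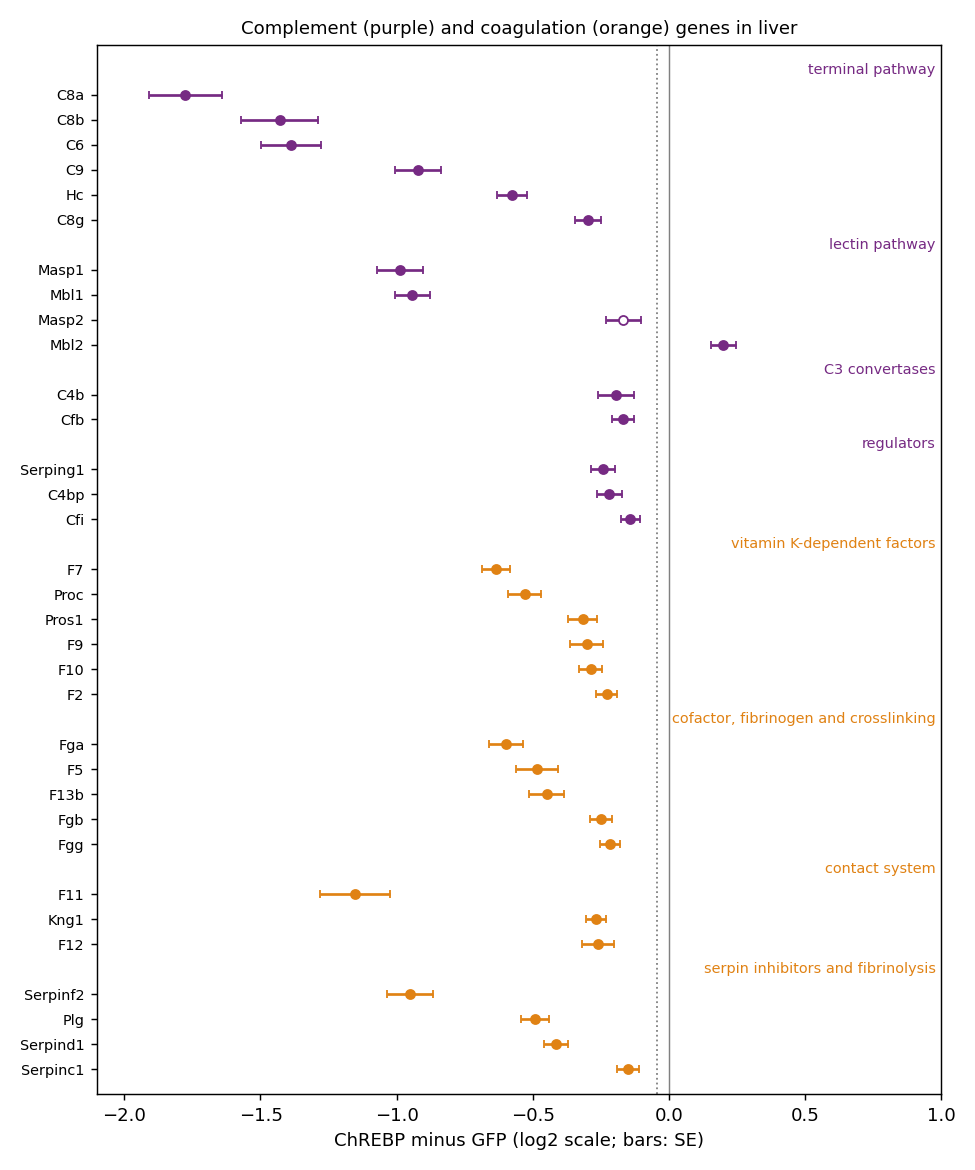
Difference of each of the 33 measured genes, ChREBP minus GFP on the log2 scale, with bars of 1 SE (6 arrays per group), grouped by role. Only Mbl2 lies right of 0, at 0.20, and C8a lies farthest left, at -1.78.

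The terminal pathway, which assembles the membrane attack complex, had the largest falls. All 6 of its members fell, against 13.7% of all genes, with a median difference of -1.16 and a range of -1.78 to -0.30. In each the groups did not overlap, against 6.83% of all genes. C8a, the alpha chain of C8, had a lowest, median and highest value of 9.55, 10.07 and 10.41 on the ChREBP arrays, against 11.64, 11.83 and 11.90 on the GFP arrays. Its level in ChREBP livers was 29.2% of that in GFP livers (difference -1.78, SE 0.133, adjusted p = 3.66e-07). C8b, the beta chain, had 10.52, 11.06 and 11.58 in ChREBP livers, against 12.37, 12.44 and 12.54 in GFP livers. It was at 37.1% of the GFP level, a difference of -1.43 (SE 0.141, adjusted p = 4.4e-06). For both chains ChREBP 2 was the lowest array, ChREBP 5 came next, and ChREBP 6 was the highest. C8g, the gamma chain, is a lipocalin unrelated in fold to the other chains. It ran at 11.05, 11.16 and 11.24 on ChREBP arrays, against 11.34, 11.47 and 11.53 on GFP arrays, a difference of -0.30 (SE 0.0481, adjusted p = 0.000362).

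The chains of C8 were also compared within each array, by the change of their log2 ratio. This was done for 10 pairs of partner genes, and since the pairs were chosen after their values had been seen, these changes are given as a description, without a test. The ratio of C8a to C8g was lower by 1.48 log2 units in ChREBP livers (change -1.48, SE 0.141), and that of C8b to C8g changed by -1.13 (SE 0.155). For both ratios the groups did not overlap. The ratio of C8a to its neighbour C8b changed by -0.35 (SE 0.0696), with ranges that overlapped between the groups. Without ChREBP 4 and ChREBP 5 the changes against C8g were -1.38 for C8a and -1.03 for C8b.

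C8a and C8b are neighbours on mouse chromosome 4 and lie on opposite strands. The 250 bases before their transcription starts are shown because these were the members with the largest falls. They are RefSeq sequence of GRCm38.p6, for C8a at chr4:104876399-104876648 on the minus strand and for C8b at chr4:104766067-104766316 on the plus strand, each written 5′ to 3′ along its gene. Capitals mark the letters CTGGGA on either strand, the core of elements through which STAT3 acts on acute phase genes. The C8a sequence holds it on the opposite strand, 41 bases before the start, and the C8b sequence does not hold it.
C8a: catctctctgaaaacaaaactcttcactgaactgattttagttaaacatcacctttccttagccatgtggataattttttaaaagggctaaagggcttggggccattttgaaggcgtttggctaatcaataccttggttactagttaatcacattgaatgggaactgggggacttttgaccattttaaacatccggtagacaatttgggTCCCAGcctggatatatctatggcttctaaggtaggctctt
C8b: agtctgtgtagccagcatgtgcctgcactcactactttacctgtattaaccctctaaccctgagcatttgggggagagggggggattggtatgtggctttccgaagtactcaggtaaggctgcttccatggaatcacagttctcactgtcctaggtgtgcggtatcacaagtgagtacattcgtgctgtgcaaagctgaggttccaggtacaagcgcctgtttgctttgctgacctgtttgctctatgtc

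C6, which joins C5b and C7 at the start of the pore, had 9.46, 9.82 and 10.22 as its lowest, median and highest values on ChREBP arrays, against 11.09, 11.24 and 11.39 on GFP arrays. Its level was 38.2% of that of GFP livers (difference -1.39, SE 0.11, adjusted p = 6.36e-07), and ChREBP 5 was the lowest array. C9, the component that polymerises into the wall of the pore, had 10.76, 11.07 and 11.22 in ChREBP livers, against 11.82, 11.93 and 12.06 in GFP livers. It fell by 0.92 on the log2 scale (SE 0.0858, adjusted p = 2.58e-06). Hc, the gene for C5, whose cleavage opens the terminal pathway, had 11.25, 11.41 and 11.50 in ChREBP livers, against 11.89, 11.98 and 12.04 in GFP livers, a difference of -0.58 (SE 0.0542, adjusted p = 2.87e-06). Without ChREBP 4 and ChREBP 5, C8a, C8b and C6 stood at -1.67, -1.32 and -1.25. C7, which is not among the listed hepatocyte factors, differed by 0.23 (SE 0.384) and did not pass (adjusted p = 0.686). Its levels were low and widely spread, at 6.49 ± 0.84 in ChREBP livers and 6.26 ± 0.702 in GFP livers (SD, n = 6 each). These values do not settle its direction.

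**Figure D2:**
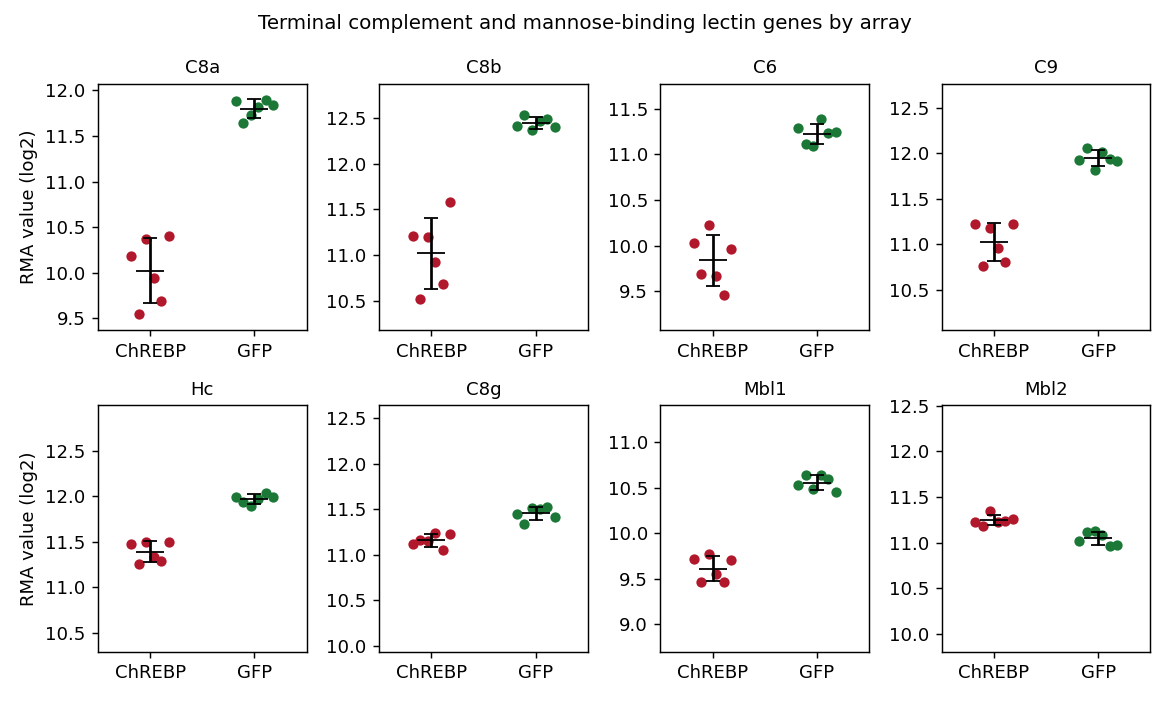
Level (log2) of terminal pathway and lectin pathway genes on each array, ChREBP arrays left of GFP arrays in each panel, with the mean and SD; every panel spans the same number of log2 units. C8a, C8b, C6 and C9 show wide gaps between the groups, C8g a narrow gap, and Mbl1 and Mbl2 opposite directions.

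The lectin pathway was split. Of its 4 members, which are the mannose-binding lectins and the serine proteases that they carry, 2 fell, 1 rose and 1 did not pass. Mbl1 had 9.46, 9.63 and 9.77 as its lowest, median and highest values in ChREBP livers, against 10.45, 10.56 and 10.64 in GFP livers, so that the ChREBP level was 52.0% of the GFP level (difference -0.94, SE 0.0643, adjusted p = 1.4e-07). Mbl2, for the other mouse mannose-binding lectin, had 11.18, 11.23 and 11.35 in ChREBP livers, against 10.96, 11.05 and 11.13 in GFP livers. It was the only member that rose (difference 0.20, SE 0.0458, adjusted p = 0.00497), and all 6 ChREBP arrays lay above all 6 GFP arrays. Without ChREBP 4 and ChREBP 5 it stood at 0.21 (adjusted p = 0.0157), and without GFP 4, GFP 6 and ChREBP 6 at 0.19 (adjusted p = 0.0463). The change in the ratio of Mbl1 to Mbl2 was -1.14 (SE 0.0571, not tested).

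Masp1, a protease that is activated on the lectins, had 9.09, 9.30 and 9.59 in ChREBP livers, against 10.15, 10.28 and 10.46 in GFP livers. Its level was 50.4% of that in GFP livers (difference -0.99, SE 0.0855, adjusted p = 1.32e-06), with the groups well apart. Masp2, the protease that cleaves C4 and C2, had 10.87, 11.08 and 11.18 in ChREBP livers, against 11.03, 11.24 and 11.33 in GFP livers. These ranges overlapped, and the difference of -0.17 (SE 0.0641) did not pass (adjusted p = 0.0676). It passed when GFP 2 was left out (-0.21, adjusted p = 0.0211) or ChREBP 3 was left out (-0.20, adjusted p = 0.0487). The change in the ratio of Masp1 to Masp2 was -0.82 (SE 0.0736, not tested).

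The upstream sequences of the lectin genes are shown because these paralogues moved in opposite directions. In RefSeq GRCm38.p6 they are chr14:41151206-41151455 for Mbl1 and chr19:30232678-30232927 for Mbl2, both on the plus strand. Capitals again mark CTGGGA, which the Mbl1 sequence holds 158 bases before the start and the Mbl2 sequence does not hold.
Mbl1: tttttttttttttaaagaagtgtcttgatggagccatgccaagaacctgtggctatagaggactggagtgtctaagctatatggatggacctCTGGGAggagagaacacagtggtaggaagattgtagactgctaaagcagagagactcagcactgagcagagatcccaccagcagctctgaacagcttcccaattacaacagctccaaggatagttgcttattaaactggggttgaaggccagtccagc
Mbl2: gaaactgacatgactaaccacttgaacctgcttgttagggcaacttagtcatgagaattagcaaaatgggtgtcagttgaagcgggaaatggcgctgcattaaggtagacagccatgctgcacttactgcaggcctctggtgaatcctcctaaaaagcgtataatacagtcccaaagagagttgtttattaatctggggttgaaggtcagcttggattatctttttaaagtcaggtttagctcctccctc

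The components of the C3 convertases and the complement regulators fell by less. C4b, a source of the convertase of the classical and lectin pathways, had 9.91, 10.21 and 10.27 in ChREBP livers, against 10.26, 10.32 and 10.49 in GFP livers, with overlapping ranges. The difference was -0.19 (SE 0.0652, adjusted p = 0.0403). It no longer passed without array 1, 2, 3 or 5 of the GFP group or array 1, 2 or 5 of the ChREBP group, with differences of -0.20 to -0.15 and adjusted p of 0.0534 to 0.0869, or without ChREBP 4 and ChREBP 5 together (-0.16, adjusted p = 0.0614). C4b has a near-identical copy, C4a, so the split of signal between them is uncertain. Cfb, which gives the alternative pathway its protease, fell by 0.17 (SE 0.041, adjusted p = 0.00707). Among the regulators, Serping1, the C1 inhibitor that also blocks the contact factors, fell by 0.24 (adjusted p = 0.000874), C4bp, the cofactor that binds C4b protein, by 0.22 (adjusted p = 0.00222), and Cfi, the protease that cuts C3b and C4b proteins, by 0.14 (adjusted p = 0.00837). Their groups did not overlap, and the Cfi arrays were close together, at 12.10 to 12.19 in ChREBP livers and 12.26 to 12.32 in GFP livers.

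Coagulation was lower throughout. All 18 measured members fell, against 13.7% of all genes, with a median difference of -0.37 and a range of -1.15 to -0.15. In every one the groups did not overlap, against 6.83% of all genes. Falls of at least 1.5-fold were found for 4 of them, F11, Serpinf2, F7 and Fga, against 1.6% of all genes.

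The 6 vitamin K-dependent factors, which bind membranes through carboxylated glutamates, fell by 0.23 to 0.64 with a median difference of -0.31. F7, which starts the cascade with tissue factor, had 8.30, 8.42 and 8.55 as its lowest, median and highest values in ChREBP livers, against 8.94, 9.07 and 9.15 in GFP livers (difference -0.64, SE 0.0529, adjusted p = 9.37e-07). F10, its neighbour on the chromosome and the protease that forms thrombin, had 11.55, 11.62 and 11.71 in ChREBP livers, against 11.84, 11.92 and 11.98 in GFP livers (difference -0.29, adjusted p = 0.00019). The ratio of F7 to F10 changed by -0.35 (SE 0.0398, not tested). F9, which acts with factor VIII, differed by -0.30 (adjusted p = 0.00202), and F2, for prothrombin, by -0.23 (adjusted p = 0.000599). The anticoagulant side of the family moved the same way. Proc, for protein C, which cuts the activated cofactors, had 9.84, 9.99 and 10.22 in ChREBP livers, against 10.48, 10.51 and 10.60 in GFP livers (difference -0.53, adjusted p = 1.55e-05). Pros1, for its cofactor protein S, differed by -0.32 (adjusted p = 0.000422).

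The fibrinogen genes form a cluster on chromosome 3, and their chains assemble in equal numbers. Fga, the alpha chain, had 10.86, 11.06 and 11.20 in ChREBP livers, against 11.56, 11.63 and 11.84 in GFP livers (difference -0.60, SE 0.063, adjusted p = 7.82e-06). Fgb, the beta chain, had 12.63, 12.71 and 12.74 in ChREBP livers, against 12.89, 12.94 and 13.001 in GFP livers (difference -0.25, adjusted p = 0.000301). Fgg, the gamma chain, had 12.62, 12.68 and 12.72 in ChREBP livers, against 12.86, 12.88 and 12.95 in GFP livers (difference -0.22, adjusted p = 0.000569). The groups did not overlap for any chain, and the alpha chain had the largest difference of the chains. Its ratio changed by -0.35 against Fgb (SE 0.0468) and by -0.38 against Fgg (SE 0.0491), while that of Fgb to Fgg changed by -0.03 (SE 0.0153), and none of these changes was tested. Another row for Fga, dimmer than the row used, gave 10.43 ± 0.139 in ChREBP livers and 11.29 ± 0.0952 in GFP livers (SD, n = 6 each), a difference of -0.86. With the rows of Fga averaged, its ratio changed by -0.48 against Fgb and by -0.51 against Fgg, so the size of these changes depends on the row. The rows of Fgb and Fgg were also brighter than that of Fga, with GFP means of 12.95 and 12.89 against 11.65. Array maxima ran from 13.52 to 13.68, and the part of row brightness in these changes was not tested.

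The sequences before the starts of the fibrinogen genes are shown because the chains are made together, with CTGGGA in capitals. Their RefSeq GRCm38.p6 positions are chr3:83025903-83026152 for Fga and chr3:83007474-83007723 for Fgg on the plus strand, and chr3:83049864-83050113 for Fgb on the minus strand. Each of these sequences holds the letters, beginning 121 bases before the start of Fga, 91 before that of Fgb and 13 before that of Fgg.
Fga: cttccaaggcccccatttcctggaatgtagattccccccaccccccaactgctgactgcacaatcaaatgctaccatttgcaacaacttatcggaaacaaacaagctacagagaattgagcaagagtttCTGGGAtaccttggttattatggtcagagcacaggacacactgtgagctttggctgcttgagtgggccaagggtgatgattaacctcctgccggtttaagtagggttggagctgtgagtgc
Fgb: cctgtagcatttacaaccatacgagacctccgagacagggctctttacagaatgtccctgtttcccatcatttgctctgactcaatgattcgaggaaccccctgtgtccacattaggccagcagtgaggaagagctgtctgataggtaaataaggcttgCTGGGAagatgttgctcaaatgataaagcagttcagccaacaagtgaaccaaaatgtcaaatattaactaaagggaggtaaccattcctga
Fgg: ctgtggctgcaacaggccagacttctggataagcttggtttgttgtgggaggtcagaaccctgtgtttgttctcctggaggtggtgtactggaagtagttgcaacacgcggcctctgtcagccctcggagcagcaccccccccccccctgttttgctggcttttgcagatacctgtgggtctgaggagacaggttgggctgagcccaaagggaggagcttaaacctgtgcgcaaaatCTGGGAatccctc

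F5, the cofactor of factor X, had 10.04, 10.32 and 10.46 in ChREBP livers, against 10.68, 10.74 and 10.90 in GFP livers (difference -0.48, adjusted p = 0.000292). F13b, the carrier subunit of the fibrin-crosslinking enzyme, differed by -0.45 (adjusted p = 0.000141). F13a1, the catalytic subunit, is made mainly outside hepatocytes and was counted with the other pathway genes. It differed by 0.00386 and did not pass (adjusted p = 0.979).

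Of the contact system, which starts clotting on charged surfaces, all 3 measured members fell. F11 had 8.28, 8.65 and 8.99 in ChREBP livers, against 9.60, 9.73 and 10.19 in GFP livers. Its level was 45.0% of that in GFP livers (difference -1.15, SE 0.13, adjusted p = 1.56e-05), the largest fall among the coagulation members measured, and it stood at -1.06 without ChREBP 4 and ChREBP 5. F12, the protease that activates factor XI, had 9.18, 9.35 and 9.39 in ChREBP livers, against 9.43, 9.60 and 9.68 in GFP livers (difference -0.26, adjusted p = 0.00405). The ratio of F11 to F12 changed by -0.89 (SE 0.134, not tested). Kng1, for the kininogen that carries factor XI and releases bradykinin, differed by -0.27 (adjusted p = 0.000119). It has a close copy, Kng2, so the split of signal between these is uncertain.

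Among the inhibitors and fibrinolytic factors, Serpinf2, which encodes the main inhibitor of plasmin, had 9.81, 10.06 and 10.32 in ChREBP livers, against 10.89, 11.04 and 11.11 in GFP livers. It was at 51.7% of the GFP level (difference -0.95, SE 0.0844, adjusted p = 1.64e-06). Plg, the precursor of plasmin, fell less, with 11.60, 11.76 and 11.84 in ChREBP livers, against 12.18, 12.23 and 12.28 in GFP livers (difference -0.49, adjusted p = 7.71e-06). Serpind1, heparin cofactor II, differed by -0.41 (adjusted p = 1.02e-05). Serpinc1, antithrombin, was the least changed of the coagulation members, at 12.10, 12.18 and 12.24 in ChREBP livers and 12.25, 12.33 and 12.38 in GFP livers (difference -0.15, adjusted p = 0.013), and it did not pass without ChREBP 4 and ChREBP 5 (-0.13, adjusted p = 0.0589) or without GFP 4, GFP 6 and ChREBP 6 (-0.15, adjusted p = 0.065).

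**Figure D3:**
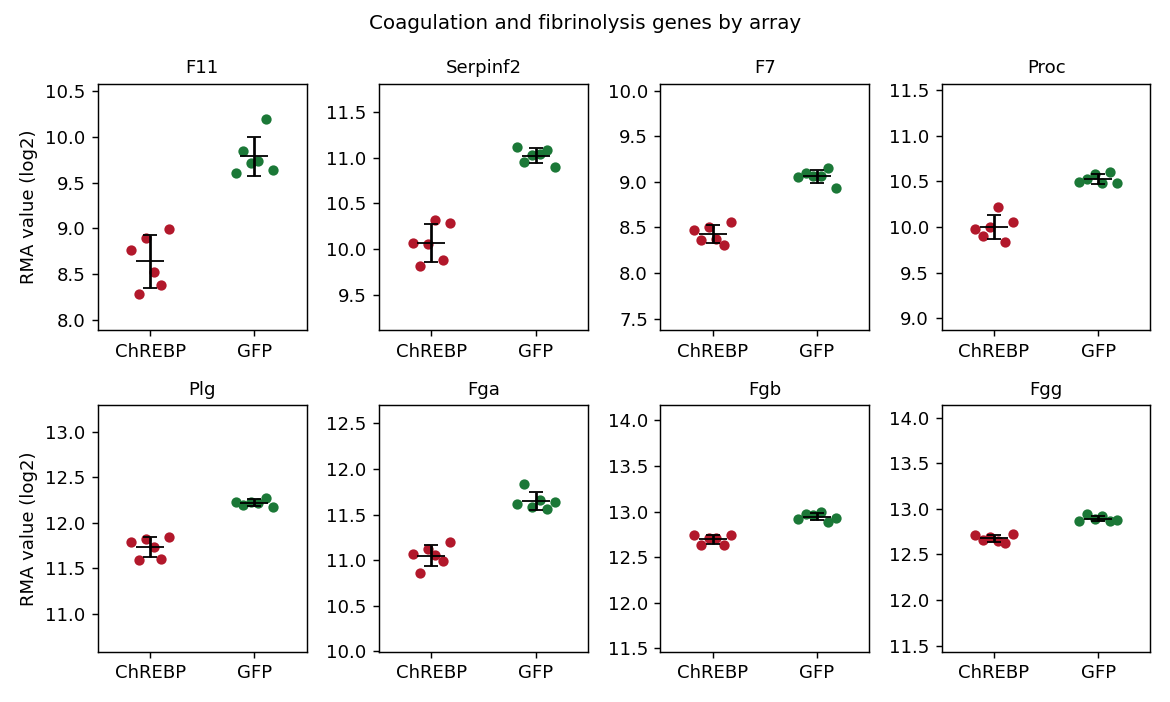
Level (log2) of coagulation genes on each array, ChREBP arrays left of GFP arrays in each panel, with the mean and SD; every panel spans the same number of log2 units. In every panel the highest ChREBP array lies below the lowest GFP array, with the widest step for F11 and Serpinf2.

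Complement and coagulation differed in the spread of their changes more than in their middle. The median difference was -0.30 for the 15 complement members and -0.37 for the 18 coagulation members, and this gap was not tested. Falls of at least 1.5-fold made up 6 of the 15 and 4 of the 18, against 1.6% of all genes. Complement held both the largest fall and the only rise, while every coagulation member lay between -1.15 and -0.15. The 6 terminal pathway members had a median of -1.16, against -0.195 for the other 9 complement members. The order of the medians depended on where Serping1 is counted, since with it among the coagulation genes they became -0.44 for complement and -0.32 for coagulation. Of the 9 members with a GFP mean above 12, C8b differed by -1.43 and the other 8 by -0.49 to -0.14.

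The arrays of the ChREBP group were ordered alike in both cascades. Each member was set against its own mean over the 12 arrays, and these deviations were averaged per array. For complement, the means were -0.49 on ChREBP 5, -0.45 on ChREBP 2 and -0.34 on ChREBP 4, and ran between -0.23 and -0.17 for the rest of that group, against 0.27 to 0.35 on the GFP arrays. For coagulation, ChREBP 5 (-0.34), ChREBP 2 (-0.33) and ChREBP 4 (-0.22) again were lowest, ChREBP 6 (-0.11) was highest, and the GFP arrays lay between 0.17 and 0.26. ChREBP 5 was the lowest array of its group for 20 members, ChREBP 2 for 12 and ChREBP 4 for 1. The order was not particular to these cascades. The hepatocyte marker means were also lowest on ChREBP 2 (12.68), ChREBP 5 (12.71) and ChREBP 4 (12.75), against 12.76 to 12.79 on the other ChREBP arrays. ChREBP 5, ChREBP 4 and ChREBP 2 are also the ChREBP arrays with the highest pancreatic transcripts. Of all 12 arrays, ChREBP 5 had the highest list means for endothelial (8.66), platelet (6.87) and T and NK cell markers (6.67). The endothelial list was split on that array. Pecam1 (9.57), Cdh5 (10.35), Lyve1 (9.19) and Vwf (7.19) were at their highest of all arrays. Stab2 (7.60), Clec4g (8.59) and F8 (8.52), by contrast, were at their lowest. Among platelet markers Ppbp (9.31), Pf4 (7.70) and Itga2b (6.43) were at their highest there, and Gp9, Gp5 and Treml1 were not. ChREBP 4 had the lowest endothelial mean (8.06). The part of these signals in the order of the arrays was not tested. Members also varied more among ChREBP livers. Their median SD was 0.109 in ChREBP livers and 0.0679 in GFP livers, with the larger SD in ChREBP livers for 31 of 33. Over all genes the median SDs were 0.109 and 0.112, with the larger SD in ChREBP livers for 9643 of 19938.

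**Figure D4:**
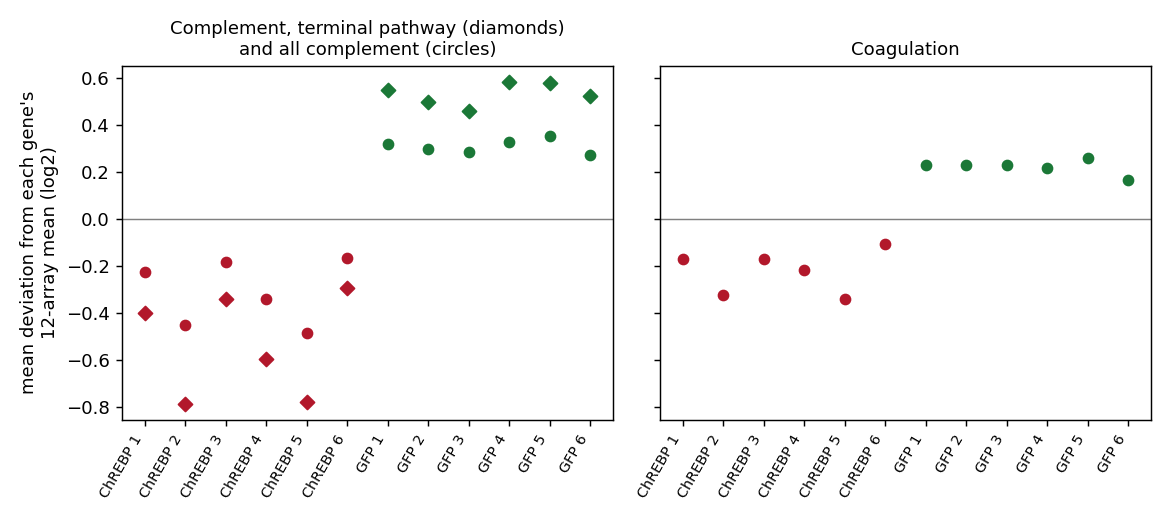
Mean deviation (log2) of the members from their own 12-array means on each array, ChREBP arrays left of GFP arrays; the left panel shows all complement members (circles) and the terminal pathway (diamonds), the right panel coagulation. All 6 ChREBP arrays lie below 0 and all 6 GFP arrays above it, and ChREBP 2 and ChREBP 5 lie lowest.

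The other genes of these pathways, many of them made by other cells, were mixed in direction, with more lower than higher. Of 72 listed, 64 were measured, with a median difference of -0.0312. Of these, 22 were lower (34.4%, against 13.7% of all genes), 13 were higher (against 13.3% of all genes) and 29 did not pass. The counts of each list below are to be read against the same shares of all genes, 13.7% lower and 13.3% higher. The plot of the other pathway genes shows them by list.

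Among the 14 measured genes of the classical and alternative pathways and the collectins, 4 were higher and 4 lower. The chains of C1q, the antibody-binding starter of the classical pathway that macrophages make, were higher, with C1qa at 0.49 (adjusted p = 0.000276), C1qb at 0.59 (adjusted p = 2.77e-06) and C1qc at 0.59 (adjusted p = 5.81e-05). Cfp, for properdin, which stabilises the alternative convertase, was also higher, at 0.29 (adjusted p = 0.00479). By contrast Fcna, a ficolin that starts the lectin pathway, had 7.79, 8.03 and 8.32 in ChREBP livers, against 8.71, 8.96 and 9.11 in GFP livers (difference -0.89, adjusted p = 4.57e-06). C1ra, a protease of the C1 complex, differed by -0.39 (adjusted p = 0.0105), C2, the protease of the classical convertase, by -0.35 (adjusted p = 0.000761), and C4a by -0.35 (adjusted p = 0.0108). C1ra and C4a have near-identical copies, so their values are uncertain.

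Of 11 measured complement regulators 5 were lower and 0 higher at an adjusted p under 0.05 in limma. Susd4, a membrane inhibitor of complement, had 5.31, 5.54 and 5.82 in ChREBP livers, against 7.27, 7.56 and 8.11 in GFP livers, a difference of -2.07 (SE 0.136, adjusted p = 9.92e-08). Cpn2 (-0.78, adjusted p = 4.37e-06) and Cpn1 (-0.36, adjusted p = 0.00011), the subunits of the carboxypeptidase that trims the anaphylatoxins, were both lower, and so was Vtn, for vitronectin, which blocks the assembling pore (-0.39, adjusted p = 0.000103). Receptors of complement fragments, which sit mainly on leukocytes, went the other way, with 5 of 9 higher and 1 lower. C5ar1, the receptor of the C5 fragment, had 7.19, 7.33 and 7.52 in ChREBP livers, against 5.94, 6.26 and 6.54 in GFP livers (difference 1.10, adjusted p = 1.91e-06). Itgax (0.94) and Itgb2 (0.68), subunits of integrins that bind cleaved C3, and C3ar1 (0.57), the receptor of the C3 fragment, were higher too. Vsig4, a C3 fragment receptor of Kupffer cells, was lower (-0.21, adjusted p = 0.0334). It no longer passed without array 1, 2, 3 or 5 of the GFP group or array 1, 4, 5 or 6 of the ChREBP group (-0.21 to -0.19, adjusted p of 0.053 to 0.0702), or without ChREBP 4 and ChREBP 5 together (-0.16, adjusted p = 0.134). Of 11 macrophage markers 7 were higher and 4 lower, with list means of 8.57 to 8.88 on ChREBP arrays and 8.33 to 8.66 on GFP arrays. The 4 lower were Timd4 (-1.59), Clec4f (-0.41), Marco (-0.35) and Vsig4. The 7 higher were Cd5l (0.83), Cd68 (0.74), Adgre1 (0.63), Csf1r (0.50), C1qa, C1qb and C1qc. The part of leukocyte numbers in these values was not tested.

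On the coagulation side, the genes for tissue factor (F3, 0.24), factor VIII (F8, -0.04) and von Willebrand factor (Vwf, 0.06) did not pass, and of the 8 measured genes of that list 2 were lower, F2r, a thrombin receptor (-0.30, adjusted p = 0.00786), and Adamts13, the protease that cuts von Willebrand factor (-0.19, adjusted p = 0.0191), which did not pass without GFP 4, GFP 6 and ChREBP 6 (-0.20, adjusted p = 0.0742). F8 and Vwf come from endothelium, whose 8 markers, these genes among them, had 1 higher and 0 lower, and the 6 measured platelet markers had 0 of either. Among 11 inhibitors and anticoagulants 6 were lower and 0 higher. Proz, protein Z, had 9.51, 9.71 and 9.79 in ChREBP livers, against 10.28, 10.34 and 10.46 in GFP livers (difference -0.69, adjusted p = 1.15e-06). Serpina10, the serpin that works with protein Z, fell by a like amount (-0.66, adjusted p = 1.44e-06), and so, by less, did Pzp, a plasma protease trap (-0.28, adjusted p = 0.000301), and Apoh (-0.24, adjusted p = 0.000876).

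Genes of plasminogen activation were split. Plau, the urokinase (0.43, adjusted p = 0.00384), its receptor Plaur (0.34, adjusted p = 0.0103) and Plat, the tissue activator (0.29, adjusted p = 0.0381), were higher, although Plat, at 5.78 ± 0.203 in ChREBP livers and 5.49 ± 0.166 in GFP livers, lost its call without array 1, 2, 4 or 5 of the GFP group or array 1, 4, 5 or 6 of the ChREBP group (0.25 to 0.29, adjusted p of 0.0631 to 0.0792). Habp2, a plasma protease that can activate factor VII and urokinase, was lower (-0.63, adjusted p = 3.65e-05), and Kng2 was at -0.18 (adjusted p = 0.0128). In the vitamin K cycle, which recycles the cofactor used to carboxylate the vitamin K-dependent factors, Ggcx, the carboxylase, had 8.27, 8.48 and 8.69 in ChREBP livers, against 8.81, 9.07 and 9.25 in GFP livers (difference -0.60, adjusted p = 0.000235). Vkorc1, the reductase that warfarin blocks, had 8.96, 9.04 and 9.15 in ChREBP livers, against 9.24, 9.33 and 9.41 in GFP livers (difference -0.29, adjusted p = 0.00025). Nqo1, a quinone reductase that can also reduce vitamin K, was far higher, at 7.31, 7.74 and 8.09 in ChREBP livers against 5.49, 5.92 and 6.22 in GFP livers (difference 1.83, adjusted p = 6.74e-07), while Vkorc1l1 (0.10) did not pass.

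**Figure D5:**
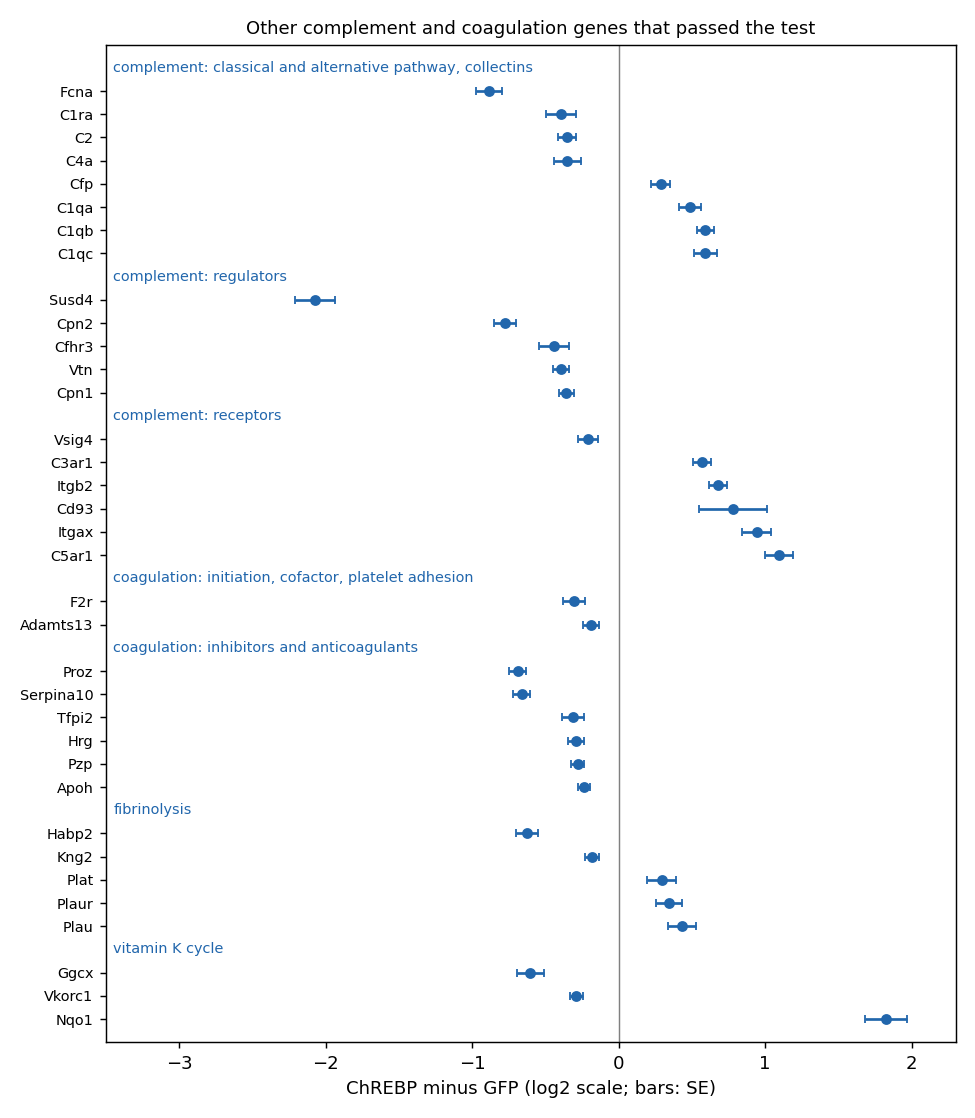
Difference of the other complement and coagulation genes that passed, ChREBP minus GFP on the log2 scale, with bars of 1 SE (6 arrays per group), grouped by list. C1q and the complement receptors other than Vsig4 lie right of 0, F2r, the regulators and the anticoagulants left of it, and Susd4 (-2.07) and Nqo1 (1.83) lie farthest out.

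The RefSeq promoter table held 26 promoters of 25 of the 33 measured members, and their 250 bases before the start were searched on both strands. The E-box CACGTG, the letters that make up the carbohydrate response element bound by ChREBP when they occur as a pair 5 bases apart, was in 0 of the 26 and in 6.02% of the 32851 promoters of the same length, and an exact pair at that spacing was in 0 of all promoters. Natural elements differ from these letters, so no match says only that they are not in this window. CTGGGA was in 11 of the 26 (42.3%) and in 27.0% of all promoters. The genes that held it were C4bp, C8a, F10, F9, Fga, Fgb, Fgg, Masp2, Mbl1, Pros1 and Serpind1, which take in large falls (C8a and Mbl1) and Masp2, which did not pass. A match is a description and not a bound site.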

How the data were processed

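Total RNA from each liver was amplified, biotin-labelled and hybridised to Affymetrix mouse gene arrays. The values are the log2 values that the authors deposited, made with RMA and Partek per the submitters' processing notes, with versions not given there. RMA subtracts background, gives all arrays a common distribution by quantile normalization, and joins a transcript's probes by median polish. The scale is borne out by array medians of 5.96 to 6.05, and arrays correlated at 0.979 to 0.995 within groups and 0.971 to 0.986 between groups. No depth applies to arrays, and their number limits the precision. Without probe intensities, detection calls or scan dates, no gene was called absent and no batch was tested.

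Of 35556 rows, 21789 carry 1 gene symbol, 1621 several, and 12146 are not listed in the platform annotation. Current symbols were looked up by Entrez ID, with a match for 21698 rows. The brightest row per gene was kept, with no filter on dim genes. Each gene's difference was tested by limma 3.58.1 under R 4.3.3 (eBayes after lmFit, two-sided, no covariates, Benjamini-Hochberg adjustment over 19938 genes, threshold 0.05). Ratios of partner genes were described without a test. Labels call the arrays biological replicates, 6 per group.

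The members and lists were chosen with earlier results of these data known. Named were all members, Mlxipl, and from each list of other pathway genes up to 4 called genes per direction with the smallest p. F3, F8, Vwf, F13a1, C7 and Vkorc1l1, the pairs of partner genes, and cell type markers other than Alb were named after their values were seen. Alternatives changed the normalization (quantile again, or median centring), the genes (without the 25% dimmest, all rows tested, rows of a gene averaged), the moderation (trended, robust), the weights of arrays, the test (the methods' analysis of variance, or a 1.5-fold rule), the place of Serping1, the replicate number as a block, and the arrays, each left out in turn. Once the data had been seen, the pair ChREBP 4 and ChREBP 5, and the trio GFP 4, GFP 6 and ChREBP 6, were also left out. The array methods of the study describe another experiment and guided only the choice of test.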

Additional observations from a re-analysis of the deposited data

Results flagged for a closer look

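In 130 groups of 6 arrays, made of 65 named genes in each group, 8 held an array set apart from the other 5 by a gap that takes most of the range of that group. Chance sets apart about 1 in 20 such groups. Among members, Fga was highest on GFP 2, at 11.84 with the next array at 11.66, and Serpind1 was lowest on ChREBP 5, at 11.02 with the next at 11.17. Among the other pathway genes, ChREBP 2 stood highest for C1qc (9.517, next 9.26) and for Cfp (8.12, next 7.86). GFP 2 stood lowest for Habp2 (10.47, next 10.74), GFP 1 for Pzp (12.78, next 12.82), and GFP 6 for Serpina10 (10.7, next 10.8) and for Vsig4 (10.51, next 10.72). All these values are log2 levels. Each of these genes kept its direction when the array concerned was left out.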

How the results depend on the processing

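The counts of genes that passed were 32 members, 14 complement members, 18 coagulation members, 35 other pathway genes and 5375 genes in all. Under a rule of at least 1.5-fold with an unadjusted p under 0.05 they became 10, 6, 4, 14 and 1137. With Serping1 counted as a coagulation gene the complement median moved to -0.436. Leaving out each array in turn gave 31 to 33 members, 13 to 15 complement members, 18 coagulation members each time, 33 to 37 other pathway genes and 4656 to 5632 genes in all, with medians of -0.347 to -0.299 for members, -0.319 to -0.274 for complement and -0.387 to -0.347 for coagulation. Repeated quantile normalization gave 30 members and median centring 33. With the replicate number as a block, 29 members, 12 complement members, 17 coagulation members, 31 other pathway genes and 4439 genes passed. The arrays share only a number, since same-numbered arrays deviated with correlations of -0.0609 to 0.254 and only those numbered 6 matched each other best.

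No difference changed direction. Of 65 single genes, 57 stayed on their side of an adjusted p of 0.05 in each of the 23 or 24 alternatives that keep that threshold, the 1.5-fold rule being apart, and among these are 29 of the 33 members. The others were Serpinc1 (adjusted p of up to 0.065), Masp2 (down to 0.0211), C4b (up to 0.119), Cfi (0.0582 with the block), Adamts13 (up to 0.0742), Kng2 (0.0556 with the block), Plat (up to 0.146) and Vsig4 (up to 0.134). C4b was lost under 12 of its 24 alternatives, and the cause was not tested.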
